A study of Mus musculus with 14 samples.

Results

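During conversion of mouse embryonic stem (ES) cells towards primitive endoderm (PrE), 3584 distal regions of the genome became accessible between the first hours of GATA6 expression and the removal of the inducer, and were accessible at the last time point. They are the distal regions opened at 4 to 8 h, called members below, out of 121891 merged autosomal regions, of which 102165 were distal. The members were chosen by the peak calls themselves: peaks of all 14 ATAC-seq lists that shared at least 1 bp were merged, a region counted as called in a library if it overlapped any of its peaks, and distal meant a midpoint over 1 kb from every protein-coding transcription start site (TSS). A member was called in neither 0 h library and in both 48 h libraries, and its first time point with calls in both libraries was 4 h (2004 members) or 8 h (1580 members). Calls at 0, 2, 4, 8 and 48 h are therefore given as a description of that choice, whereas calls at 16 h and 24 h, the DNA sequence and the annotation took no part in it.

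The cells were KH2 ES cells, labelled as strain C57BL/6, and every group carried the transgene TRE:GATA6-DSREd2, in which a tetracycline-responsive promoter drives GATA6 when doxycycline (Dox) is added. ATAC-seq, in which a transposase cuts accessible DNA, was run on 50000 cells per library with 2 libraries at each of 0, 2, 4, 8, 16, 24 and 48 h. Cells at 0 h were in 2i medium without Dox, a serum-free medium with inhibitors and LIF. Cells at 2, 4 and 8 h were in serum medium with LIF and Dox at 1 µg/mL until collection, and those collected at 16, 24 and 48 h had Dox only in the opening 12 h, followed by serum medium free of it. Induction and the change of medium cannot be told apart, because no library came from serum without Dox. All values belong to a single engineered line, and in bulk samples fewer cells with an open region and less accessibility per cell cannot be told apart. The labels do not say whether the 2 libraries of a time point came from separate cultures, so errors and p-values measure only the spread between these libraries, which may be technical.

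PrE is the lineage of the blastocyst that lines its cavity and forms the yolk sac endoderm, and it arises beside the epiblast (Epi), which ES cells resemble. GATA6 is the zinc finger transcription factor at the top of the PrE program, acting with GATA4, SOX17 and other factors, and GATA proteins bind short DNA words with GATA at their core. Most distal accessible regions of a cell type are candidate enhancers, where such factors bind, and GATA proteins are known to engage DNA wrapped around nucleosomes.

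The lists held 55588 to 65073 peaks per library. Read depth is unknown from peak lists, so a region without a call may be open below the threshold of that library. Promoters of the ES cell markers Pou5f1, Nanog, Sox2, Esrrb and Zfp42 were called in both 0 h libraries for 5 of 5 genes, and in both 48 h libraries for 4, with Nanog not called. Of 9 PrE marker promoters, 7 were called at 0 h and 8 at 48 h, the promoters of Gata4 and Foxa2 at 48 h only and that of Col4a1 at 0 h only. Promoters of genes of other lineages were also called, 4 of 5 at 0 h and 5 at 48 h, so promoter calls alone did not separate cell types here. RNA was not measured in these libraries.

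A GATA word in the central 200 bp was held by 71.1% of members, against 39.5% of all distal regions. It was not particular to the members. The share was 68.4% in regions opened at 2 h and kept and 74.0% in regions of the same timing lost by 48 h, sets described below. The windows below are examples at PrE genes, picked by their number of matches, and are no measure of how common a GATA word was there. Each is the central 200 bp of a member on the plus strand of GRCm38, read from the RefSeq genome, with every match to AGATAA or AGATAG or TGATAA or TGATAG on either strand in capitals. The windows lie at transcription factor genes of PrE, and each is the member of that gene with the most GATA matches.
Gata4, chr14:63283724-63283923: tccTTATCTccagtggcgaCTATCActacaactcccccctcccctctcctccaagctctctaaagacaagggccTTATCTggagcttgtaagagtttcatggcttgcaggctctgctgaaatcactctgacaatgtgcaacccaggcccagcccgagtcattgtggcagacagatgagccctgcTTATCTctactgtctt
Sox17, chr1:4474511-4474710: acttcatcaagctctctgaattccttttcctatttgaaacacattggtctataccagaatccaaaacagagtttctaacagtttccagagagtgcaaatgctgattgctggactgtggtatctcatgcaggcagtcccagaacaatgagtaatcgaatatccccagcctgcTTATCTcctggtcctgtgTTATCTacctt
Foxa2, chr2:148013607-148013806: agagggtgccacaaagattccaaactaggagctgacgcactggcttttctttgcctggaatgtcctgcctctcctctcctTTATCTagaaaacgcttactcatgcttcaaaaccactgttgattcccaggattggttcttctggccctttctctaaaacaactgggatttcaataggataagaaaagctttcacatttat
Hnf4a, chr2:163526064-163526263: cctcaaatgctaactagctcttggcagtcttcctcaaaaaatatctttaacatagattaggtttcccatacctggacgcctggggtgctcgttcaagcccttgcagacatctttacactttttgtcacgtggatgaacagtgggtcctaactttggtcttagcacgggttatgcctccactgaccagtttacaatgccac
Creb3l2, chr6:37455163-37455362: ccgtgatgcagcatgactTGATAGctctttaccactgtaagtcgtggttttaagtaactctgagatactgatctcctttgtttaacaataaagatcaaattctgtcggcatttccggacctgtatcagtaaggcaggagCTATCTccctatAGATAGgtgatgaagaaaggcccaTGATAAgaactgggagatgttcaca
Klf6, chr13:5826289-5826488: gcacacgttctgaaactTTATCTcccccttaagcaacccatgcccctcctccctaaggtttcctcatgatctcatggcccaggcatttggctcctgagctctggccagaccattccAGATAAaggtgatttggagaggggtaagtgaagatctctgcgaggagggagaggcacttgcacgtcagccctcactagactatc

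The Gata4, Creb3l2 and Hnf4a windows span the range among these genes, with 4, 4 and 0 matches. The member of Pdgfra, which encodes the receptor used to sort PrE cells, also held 4 matches and was chosen for display after its values were seen. Further windows mark the ends of the range over all members: the pair with the most GATA matches, nearest to Ncaph2 and Stbd1, and the pair without a match that ranked highest at 48 h, nearest to Spink2 and Lpar3. Part of the Ncaph2 window repeats a short unit that holds a match.
Pdgfra, chr5:75143743-75143942: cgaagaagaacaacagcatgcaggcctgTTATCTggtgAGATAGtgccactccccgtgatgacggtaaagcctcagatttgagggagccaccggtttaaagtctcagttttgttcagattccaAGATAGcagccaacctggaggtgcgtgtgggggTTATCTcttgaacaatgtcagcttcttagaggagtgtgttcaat
Ncaph2, chr15:89358857-89359056: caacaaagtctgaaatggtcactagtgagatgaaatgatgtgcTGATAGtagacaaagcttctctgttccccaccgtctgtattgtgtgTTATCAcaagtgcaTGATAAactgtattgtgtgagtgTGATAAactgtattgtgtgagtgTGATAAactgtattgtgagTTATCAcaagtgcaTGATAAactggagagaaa
Stbd1, chr5:92597257-92597456: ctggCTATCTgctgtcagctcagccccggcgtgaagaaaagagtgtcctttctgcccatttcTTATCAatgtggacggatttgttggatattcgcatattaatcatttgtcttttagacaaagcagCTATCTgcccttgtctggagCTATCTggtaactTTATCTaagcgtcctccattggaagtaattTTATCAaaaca
Spink2, chr5:77165612-77165811: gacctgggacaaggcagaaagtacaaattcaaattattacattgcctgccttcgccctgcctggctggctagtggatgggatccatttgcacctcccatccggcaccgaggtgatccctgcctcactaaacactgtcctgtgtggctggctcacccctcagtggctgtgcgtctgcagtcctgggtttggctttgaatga
Lpar3, chr3:146253829-146254028: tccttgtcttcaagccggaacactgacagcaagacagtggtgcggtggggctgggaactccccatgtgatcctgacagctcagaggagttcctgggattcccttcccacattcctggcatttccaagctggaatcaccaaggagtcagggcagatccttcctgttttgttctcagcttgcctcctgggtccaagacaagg

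The timing of the members followed from the choice up to 8 h. Of all distal regions, 15838 (15.5%) were called in neither 0 h library and in both 48 h libraries, and 9652 (9.45%) were called in neither 0 h library and reached both libraries of a time point first at 4 or 8 h. The members are the regions that met both conditions. In replicates 1 and 2 they were called in 8.62% and 12.3% at 2 h, 63.9% and 66.9% at 4 h and 96.2% and 95.3% at 8 h. At 2 h, 2835 members were called in no library and 749 in 1 of 2. Of the members first called in both libraries at 4 h, 1766 were called in both 8 h libraries, 171 in 1 and 67 in neither. Of those first called at 8 h, 678 had a call in 1 library at 4 h and 902 had none.

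After the removal of Dox, most members were still called. At 16 h the share was 88.6% and 91.1% in replicates 1 and 2, a mean of 89.8% ± 1.82 (SD, n = 2). At 24 h it was 88.6% and 89.7%, a mean of 89.2% ± 0.730 (SD, n = 2). In both 16 h libraries 3050 members were called, 85.1%, against 36.8% of all distal regions. In both 24 h libraries 3015 members were called, 84.1%, against 30.4%. The members had to be open at 8 h or earlier and at 48 h, so they are not a like sample of all distal regions, and the share of all is only the background. The mean at 24 h minus that at 16 h was -0.684 percentage points, less than the spread between the 16 h libraries (exact two-sided permutation test, p = 1.00, 2 libraries against 2, smallest possible p 0.333).

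A continuous course was the rule for single members. The most frequent pattern, no call at 0 and 2 h and calls in both libraries from 4 h to 48 h, held 1144 members, and the next, with calls in both libraries from 8 h on and none before, held 639. In all, 2783 members (77.7%) had calls in each of the 4 libraries from 16 h and 24 h, against 25.0% of all distal regions. The share was higher, 81.5%, for regions opened at 2 h and kept, a set described below. A gap over both 16 h and 24 h was seen in few. In all, 79 members (2.20%) had no call in any of these 4 libraries, although they were called early and at 48 h. Gaps at a single time were more frequent. No call in either 16 h library was seen for 5.41% of members, and none in either 24 h library for 5.80%. Both shares include the 79 members. In addition, 67 members first called at 4 h had no call at 8 h. Of the 2004 members first called at 4 h, 1803 (90.0%) were called in both 16 h libraries and 1751 in both 24 h libraries. Of the 1580 first called at 8 h, fewer were so, 1247 (78.9%) at 16 h and 1264 at 24 h.

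**Figure D1:**
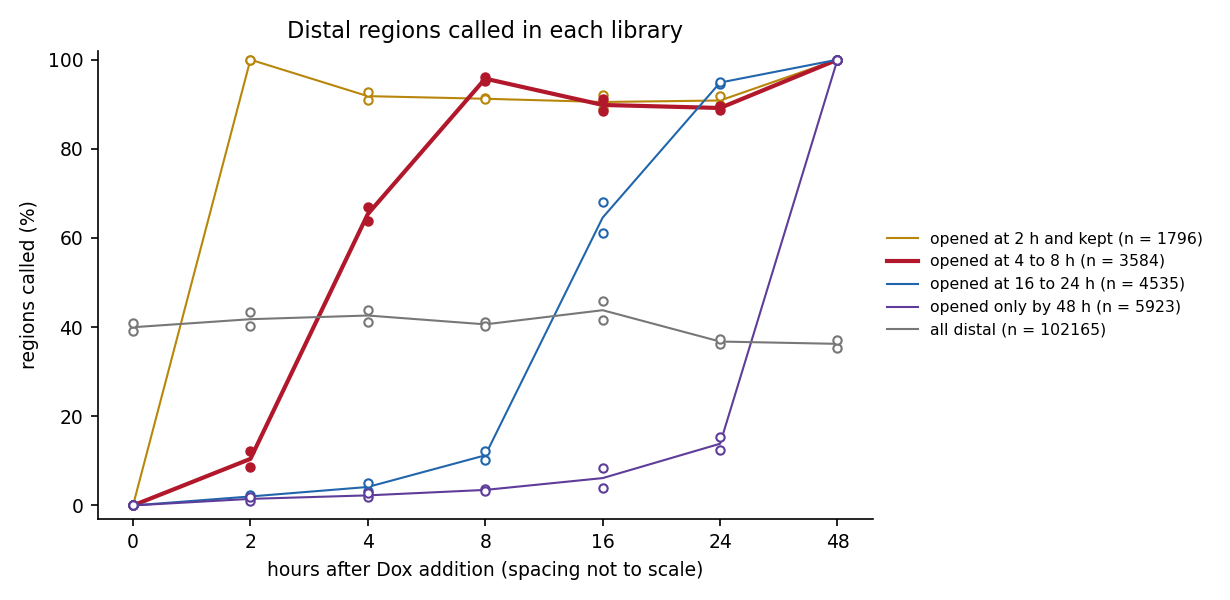
Percent of the regions of each set that were called in each library (y axis, percent; x axis, hours after Dox addition, not to scale); points are libraries and lines join the means of 2. The members (red) lie at 0 at 0 h and at 100 at 48 h by choice, and their 4 libraries of 16 h and 24 h lie between 88.6 and 91.1, slightly below the regions opened at 2 h in the same libraries.

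Regions opened at 2 h and kept, chosen in the same way but with calls in both 2 h libraries, were the earlier class (1796 regions). They were called in 89.0% and 92.0% at 16 h and 89.8% and 91.9% at 24 h. The members were lower in 4 of 4 libraries, with differences from -0.415 to -2.19 percentage points, and the mean difference was -1.17 points (exact two-sided sign-flip permutation test over 4 libraries, p = 0.125, the smallest that 4 libraries allow). With the sets defined without replicate 1 it was -2.00 points and without replicate 2 -2.87. With only the 50000 peaks of highest score in each library the difference turned to 0.575 points. The regions that opened at 16 to 24 h (4535) and those first called at 48 h (5923) are defined by calls at these times and were not compared here.

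The same selection was made within the libraries of 1 replicate number and read in those of the other, which the selection had not used. From replicate 1 alone it gave 5384 regions and from replicate 2 alone 5116. In the other replicate, regions chosen in replicates 1 and 2 were called in 11.4% and 7.94% at 0 h, 16.0% and 10.9% at 2 h, 53.0% and 47.4% at 4 h and 73.0% and 75.3% at 8 h. Later they were called in 82.7% and 77.7% at 16 h, 82.1% and 79.1% at 24 h and 87.1% and 84.2% at 48 h. The step between 2 h and 8 h was thus present in libraries that had not been used to choose the regions, although some regions chosen in one replicate had a 0 h call in the other.

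The rank of the members within each peak list was followed next. The score of a peak was turned into its percentile within its own list, where 100 is the highest score, because the scale of the score is not given in the sources used here. Among called members the median percentile was 13.0 and 16.3 at 2 h, 37.5 and 38.7 at 4 h and 52.8 and 49.9 at 8 h. It was 65.1 and 68.1 at 16 h, 61.9 and 63.1 at 24 h and 56.8 and 57.6 at 48 h. The highest values were those of the 16 h libraries, and both libraries of 48 h were below all of 16 h and 24 h. The same order was seen for the 2685 members called in all 8 libraries of 8 to 48 h, for which the set of regions is fixed: 59.5 and 56.6 at 8 h, 69.6 and 73.4 at 16 h, 66.3 and 67.4 at 24 h and 65.3 and 65.2 at 48 h. All distal regions called in each of those 8 libraries also peaked at 16 h. The mean of their library medians was 68.9 ± 1.04 in the 8 h libraries, reached 72.6 ± 1.54 by 16 h and was 63.1 ± 0.431 by 48 h (SD over 2 libraries). The regions opened at 2 h had 82.7 ± 1.26 at 16 h and 67.2 ± 0.251 at 48 h, so the fall after 16 h was not particular to the members. A percentile depends on which other peaks are in the list, so it gives no absolute change of accessibility.

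Members first called at 4 h ranked above those first called at 8 h at every time from 4 h on. Their median percentiles were 41.3 and 44.2 at 4 h, 68.5 and 66.0 at 8 h, 72.1 and 74.7 at 16 h and 60.2 and 60.1 at 48 h. For members first called at 8 h they were 17.2 and 19.0 among those with a call at 4 h, 35.9 and 34.3 at 8 h, 55.7 and 59.2 at 16 h and 52.9 and 54.0 at 48 h. The regions opened at 2 h ranked higher still while Dox was present, 74.5 and 75.9 at 4 h and 79.8 and 77.9 at 8 h, and at 48 h they were 58.4 and 59.7, a difference from the members smaller than at any earlier time. The length covered by peaks moved in a similar way, with a median of 398 ± 7.78 bp at 8 h, 474 ± 4.95 bp at 16 h and 416 ± 12.0 bp at 48 h (SD, n = 2 each), and so did that of all distal regions, with 392 ± 9.90, 434 ± 4.95 and 361 ± 11.3 bp.

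**Figure D2:**
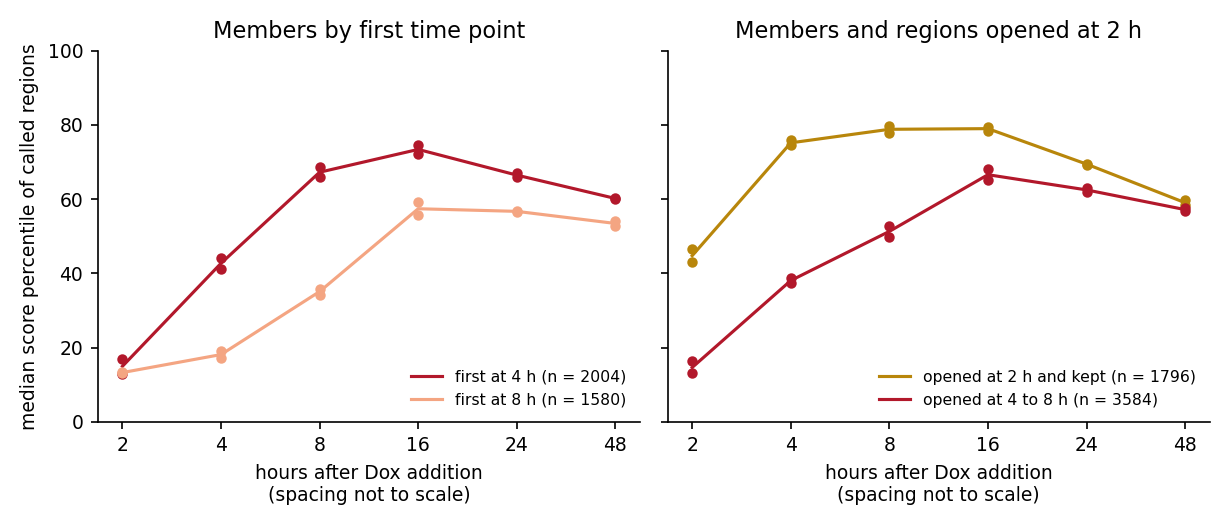
Median score percentile of called regions in each library (y axis, 100 highest; x axis, hours after Dox addition, not to scale), for members split by first time point (left) and for all members beside the regions opened at 2 h and kept (right); points are libraries and lines join means. The members rise to 65.1 and 68.1 at 16 h and fall to 56.8 and 57.6 at 48 h, where they lie close to the regions opened at 2 h.

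The members that were kept were set beside regions that had the same timing but were lost. A further 5155 distal regions were called in neither 0 h library, first in both libraries at 4 or 8 h, and in neither 48 h library. They are more numerous than the members. They were called in 83.8% and 82.3% at 8 h, 47.2% and 53.7% at 16 h and 20.0% and 21.5% at 24 h, so many were already without a call before 24 h. At 8 h their median percentile was 35.5 and 32.6, against 52.8 and 49.9 for the members. Both sets were chosen on the 48 h calls, and these values are a description.

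GATA words were then counted in the central 200 bp of each region. At least 1 match was found in 2550 of 3584 members, 71.1%, against 39.5% of all distal regions. A control with the same letters in another order, AAGTAA or AAGTAG or TAGTAA or TAGTAG, matched 24.1% of members and 22.8% of all distal regions. Members with 2 or more matches made up 39.9%, against 13.3% of all distal regions, and the mean number was 1.32 against 0.584. By word, AGATAA was in 46.6% of members and 19.3% of distal regions, and TGATAG, the rarest, in 13.1% and 7.75%. Mean GC content of the windows was 49.0% in members and 49.8% in all distal regions.

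The other opened sets held fewer GATA words. A match was found in 68.4% of regions opened at 2 h and kept, 56.1% of those opened at 16 to 24 h and 56.6% of those opened only by 48 h. For a test, each set was defined from the libraries of replicate 1 alone and of replicate 2 alone, which gives larger sets with lower shares. The members then had 62.5% and 63.0%. This was 8.92 percentage points above the regions opened at 2 h, 9.69 above those opened at 16 to 24 h and 8.31 above those opened only by 48 h. Each difference was beyond the larger SD of 2 sets. The 2 sets of a kind are read on the same genome sequence, so this SD measures only how far the 2 selections agree. The values did not overlap in any of the 3 comparisons (exact two-sided permutation tests, p = 0.333 each, the smallest that 2 values against 2 allow). The size of all 3 differences depended on the definition. Between the sets called in both libraries it was 2.72 points for regions opened at 2 h and 15.0 and 14.5 points for the later sets. In single replicates the share of regions opened at 2 h fell most, to 53.9% and 53.8%. Of these regions, 28.2% and 21.6% had a 0 h call in the other replicate, against 11.4% and 7.94% for the members. The cause of the unequal fall was not tested. The regions of the same timing that were lost by 48 h had a share of 74.0%, no lower than that of the members.

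**Figure D3:**
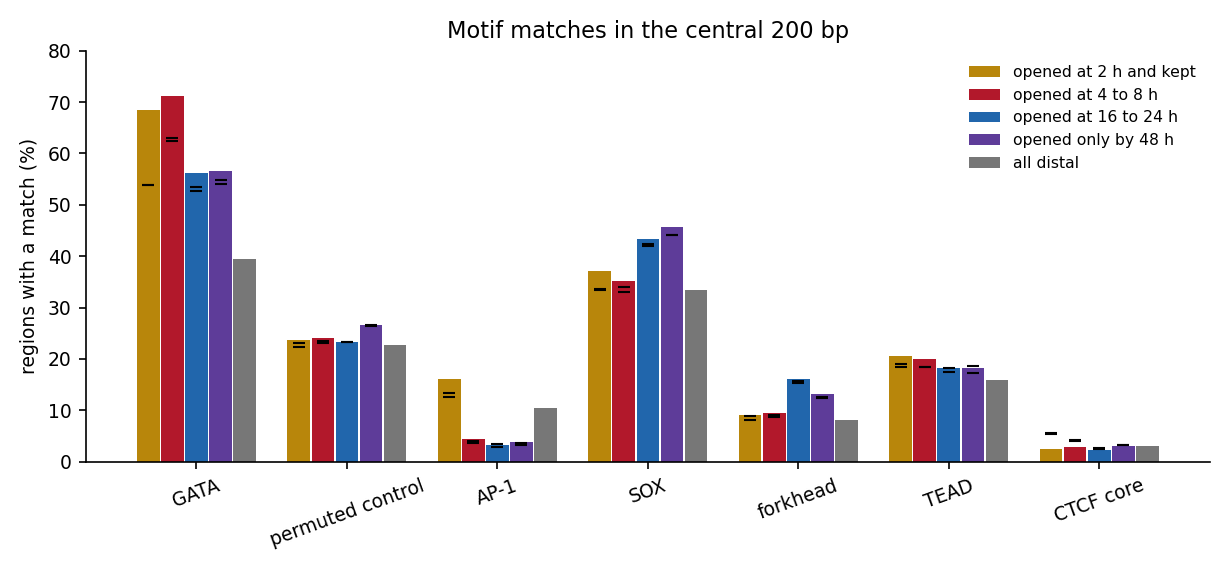
Percent of regions with a match to each motif in the central 200 bp (y axis, percent) for the 4 opened sets and all distal regions; bars are sets called in both libraries and black ticks are the sets defined from replicate 1 and replicate 2 libraries alone. The members (red) have the highest GATA bar at 71.1% and an AP-1 bar of 4.38%, below the 16.1% of regions opened at 2 h.

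GATA words were concentrated at the midpoints of the members. In the 50 bp after the midpoint there were 7.24 matches per kb, falling to 4.70 at 100 to 150 bp and 2.04 at 450 to 500 bp. Before the midpoint the values were 7.51, 4.77 and 2.02 in the corresponding bins. In the 50 bp after the midpoint, all distal regions had 3.23 matches per kb, regions opened at 2 h 6.40, those opened at 16 to 24 h 4.67 and those opened only by 48 h 5.13. The regions of the same timing that were lost by 48 h had 8.23 after the midpoint and 8.11 before it, above the members. The control words did not rise there, with 1.31 per kb in that bin and 1.60 at 450 to 500 bp.

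**Figure D4:**
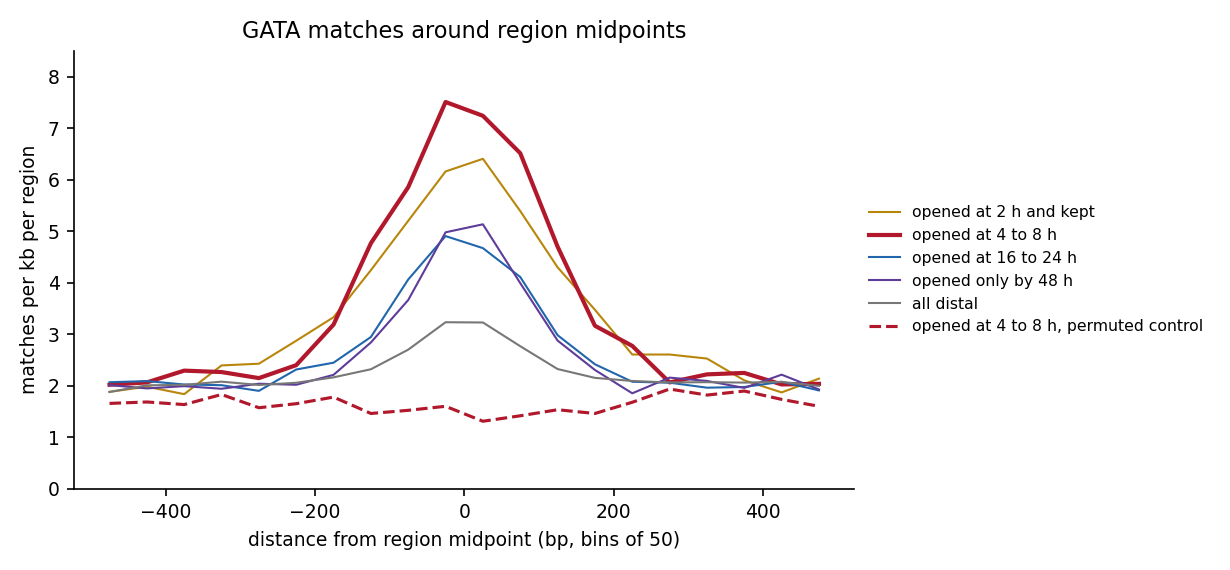
GATA matches per kb of sequence (y axis) by distance from the region midpoint (x axis, bp, bins of 50) for the members, the other opened sets and all distal regions, with control words in members as a dashed line. The members peak at 7.51 per kb beside the midpoint and reach 2.04 at the right edge, while the dashed line stays under 2.

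Members with more GATA words were called more often at 16 h, a time the choice had not used. The 1034 members without a match were called in 81.3% and 84.8% at 16 h and 86.3% and 86.5% at 24 h. The 876 with 2 matches were called in 92.4% and 95.3% at 16 h and 90.0% and 89.8% at 24 h, and the 387 with 3 in 93.5% and 96.6% at 16 h and 87.6% and 91.0% at 24 h. At 16 h the members with 2 or 3 matches exceeded those without any by more than the difference between the libraries. At 24 h this held for those with 2 matches, by a smaller margin. Those with 3 lay above those without any in both 24 h libraries, but their 2 libraries differed more. The 167 members with 4 or more matches were called in 91.6% and 93.4% at 16 h, no higher than those with 3. The median percentile at 16 h was 55.8 and 58.7 without a match and 69.8 and 72.2 with 3. Members of one group share libraries and are no replicates, so no test was made over them. In the part the choice had used, the share without any 2 h call rose from 69.6% without a match to 90.4% with 4 or more.

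Words for other factors separated the members from sets that opened earlier or later. AP-1, the family of FOS and JUN, binds TGACTCA or TGAGTCA, which lay in 157 members, 4.38%. The share was 16.1% in regions opened at 2 h and 10.4% in all distal regions, and 3.29% and 3.76% in the later sets. In the sets defined by single replicates, the members differed from the regions opened at 2 h by -9.13 points, beyond an SD of 0.586 (exact permutation p = 0.333, the smallest possible). The lost regions of the same timing had AP-1 words in 11.5%. The 157 members with an AP-1 word were called in 77.7% and 80.9% at 16 h and 77.1% and 80.9% at 24 h, below the 89.1% and 91.6% at 16 h and 89.2% and 90.1% at 24 h of members without one.

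SOX factors, among them the PrE factors SOX17 and SOX7 and the ES cell factor SOX2, bind ACAATG or ACAAAG, which lay in 35.2% of members. Sets that opened later held more, 43.4% at 16 to 24 h and 45.7% only by 48 h, and all distal regions held 33.4%. Forkhead words, TGTTTAC or TGTTTGC, which FOXA2 binds, lay in 9.49% of members, 16.0% of regions opened at 16 to 24 h and 13.2% of those opened only by 48 h. In the sets defined by single replicates, the members lay below both later sets for both factors, by -8.60 and -10.5 points for SOX and -6.70 and -3.65 for forkhead (exact permutation p = 0.333 each, the smallest possible). From the regions opened at 2 h the members did not separate in these motifs, with differences of 0.120 and 0.353 points and overlapping values. A match is a description of the letters and not a bound site.

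The remaining words separated the members from all distal regions by fewer percentage points than GATA and AP-1 words did. TEAD factors, which act in Hippo signalling, had GGAATG in 19.9% of members and 15.9% of all distal regions. KLF words, CCACACCC or CCACGCCC, lay in 5.58% against 7.54%, HNF4 words, CAAAGTCCA or CAAAGGTCA, in 0.725% against 0.888%, and ETS words, CCGGAAGT or ACAGGAAG, in 3.18% against 3.64%. The RUNX word TGTGGT lay in 18.4% against 17.0%, the nuclear receptor word AAGGTCA in 4.49% against 6.15% and the CArG box of SRF in 0.865% against 0.909%. OCT words, ATGCAAAT or ATGCTAAT, which the ES cell factor OCT4 binds, lay in 2.26% of members against 4.41%. The core word of the insulator protein CTCF, AGNNGGCGC, lay in 2.87% against 3.14%. Of the motifs searched, this one marked the members least often called at 16 h and 24 h, 103 in number and called in 58.3% and 68.9% at 16 h and 73.8% and 74.8% at 24 h.

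By position in genes the members resembled other distal regions. Introns of protein-coding genes held 1751 midpoints (48.9%), and 1718 (47.9%) lay between genes. Coding exons held 61 and UTR exons 54. The intron share of all distal regions was 47.3%. The median distance to the nearest TSS was 22848.5 bp in members and 24041 bp in all distal regions, and 15.1% of members lay over 100 kb from any TSS. Soft-masked repeats made up 11.4% of the members' windows and 13.1% of those of all distal regions. Another member lay within 50 kb of 31.1% of members, and a region opened at 2 h within 50 kb of 17.3%.

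The edge of the distal class was not a gap. The members nearest to a start lay 1002 bp from Clcn7, at chr17:25144474-25145139, and 1005 bp from Ints6. Just outside lay regions 1000 bp from Aldoa, at chr7:126809849-126810367, and 994 bp from Zfp362. In all, 370 regions had the timing of the members but lay within 1 kb of a TSS.

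Genes were assigned as the nearest TSS within 50 kb, which gave 2553 members and 2148 genes. The nearest gene is not shown to be the target. Of the assigned members, 67.8% lay nearest to a gene whose promoter was already called in both 0 h libraries, against 67.2% of all assigned distal regions. PrE genes of the study, a list from blastocyst single-cell data, were nearest to 231 members, 9.05%, against 4.91% of distal regions. The share was 9.51% in regions opened at 2 h, 8.76% at 16 to 24 h and 7.80% only by 48 h. Epi genes of the study were nearest to 36 members, 1.41%, against 2.38% of distal regions. The Epi share was also below that of distal regions in the other opened sets, 2.21% at 2 h, 1.67% at 16 to 24 h and 1.11% only by 48 h.

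PrE transcription factors were the list with most members for their number of distal regions. Of the 166 distal regions assigned to the 12 genes, 22 were members, 13.3%, against 3.60% over all genes. The list took 0.862% of assigned members and 0.234% of all assigned distal regions. It took 0.684% of assigned regions opened at 2 h, 0.410% at 16 to 24 h and 0.396% only by 48 h, so the other opened sets also lay above all distal regions. Members lay at 10 of the genes. Among these, Gata4 had 5, Tcf7l2 had 3, Creb3l2, Foxa2, Gata6 and Sox17 had 2 each, and Foxq1, Hnf4a and Klf6 had 1 each. Sox7 and Hnf4g had none. Over all protein-coding genes, 10.4% had a member. The list was compiled with earlier results of these data known, and its counts are a description.

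The Gata4 locus carried members on both sides of the gene start. GATA4 is a close relative of GATA6 that acts with it in PrE, and its promoter was not called at 0 h. Downstream of the start a pair of neighbouring members, chr14:63264381-63265157 and chr14:63265273-63265546, lay in an intron, with first calls in both libraries at 8 h for the former and 4 h for the latter. Farther downstream, chr14:63231051-63232158, also in an intron and 13643 bp from the nearest Gata4 TSS, was called at 4 h with score percentiles of 77.9 and 82.6. Upstream of the start, chr14:63283381-63284266 and chr14:63297044-63297908 lay 12132 and 25784 bp away between genes. The region whose sequence is shown above had percentiles of 29.6 and 9.27 at 4 h, 50.2 and 54.0 at 8 h, 69.9 and 70.9 at 16 h, 85.6 and 83.5 at 24 h and 88.9 and 91.0 at 48 h. It thus ranked lower at 4 h than at every later time, and the 5 members were called in all libraries of 8 to 48 h.

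**Figure D5:**
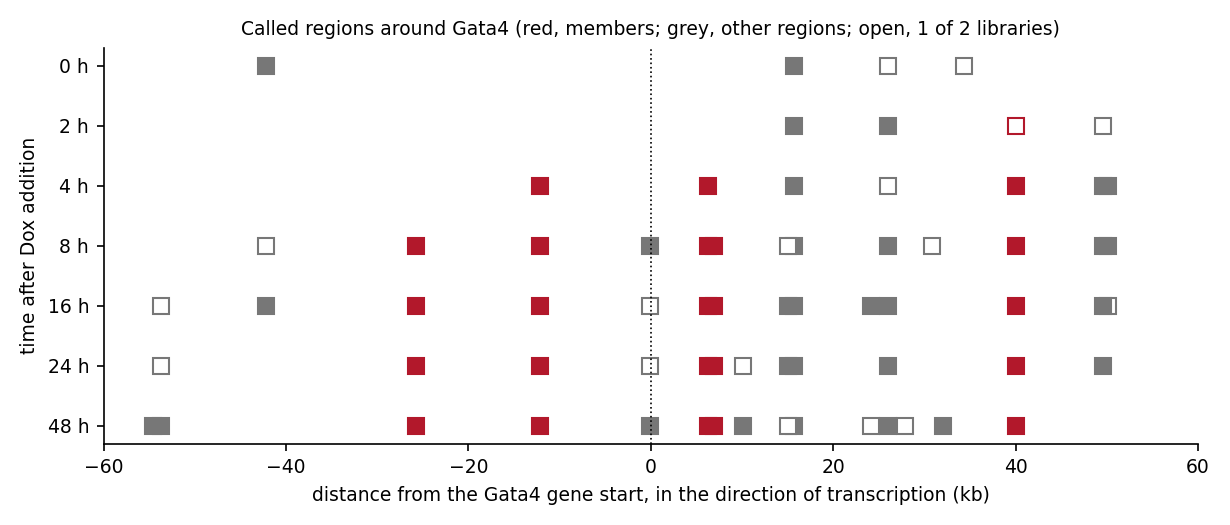
Merged regions within 60 kb of the Gata4 gene start (x axis, kb in the direction of transcription) at each time point (y axis); filled squares are called in both libraries, open squares in 1, red marks the 5 members and grey the other regions. Members are absent at 0 h, 3 are called in both libraries at 4 h and all 5 from 8 h to 48 h, and at 48 h the region at the gene start is also called in both.

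Members at other PrE factors differed in their course. The Sox17 member shown above, chr1:4474328-4474894, had 74.2 and 75.0 at 4 h and 86.1 and 86.2 at 48 h. FOXA2 and HNF4A are factors of endoderm and of later visceral endoderm. The Foxa2 member chr2:148004528-148005659, without a GATA match, had 19.1 and 4.13 at 8 h and 83.8 and 79.3 at 48 h, whereas the Hnf4a member chr2:163525732-163526595 fell from 67.6 and 56.0 at 8 h to 16.8 and 27.3 at 48 h.

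Receptors and feedback genes of the ERK pathway, which PrE formation requires, held 15 members at 12 of 14 genes. This was 8.57% of their distal regions, against 3.60% over all genes. Cells left the inhibitors of 2i medium when Dox was added, and for these genes too the 2 changes cannot be told apart. Dusp4, Spry2 and Spry4, inhibitors of the pathway, had 2 each, and Pdgfra, Kit, Kdr, Fgfr1, Fgfr2, Fgfr3, Fgfr4, Spry1 and Etv5 had 1 each. The Pdgfra member, chr5:75143594-75144092, lay 8449 bp from the TSS between genes. It ranked at 91.8 and 94.3 at 4 h, 96.7 and 96.8 at 16 h and 83.9 and 87.2 at 48 h, near the top of the lists at its first call.

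Genes of the basement membrane, the matrix that PrE cells secrete, held 12 members at 8 of 14 genes (6.67% of their distal regions, against 3.60% over all genes). They took 0.470% of assigned members and 0.473% of assigned regions opened at 16 to 24 h. Sparc, a matrix glycoprotein, had 3 and Lamc1 and Nid2, a laminin chain and a nidogen, 2 each. The Sparc member at chr11:55438040-55438522 ranked at 17.6 and 27.6 at 8 h and 89.9 and 92.1 at 16 h. Endocytic receptors and adaptors held 5 members at 3 of 8 genes (7.69% of their distal regions), with 2 each at Cubn and Lrpap1 and 1 at Amn. They took 0.196% of assigned members, less than the 0.532% of assigned regions opened at 2 h. Cubn and Amn encode the parts of the cubilin receptor of visceral endoderm. Secreted plasma proteins, products of visceral endoderm such as albumin and transferrin, held 0 members, but only 10 distal regions were assigned to them in all. Parietal endoderm genes held 2, at Pdpn and Pth1r, 5.00% of their distal regions.

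Among the other lists, WNT, BMP and NODAL genes held 9 members at 8 of 20 genes, with 2 at the WNT inhibitor Dkk1, 5.03% of their distal regions against the 3.60% of all genes. SRF and actin genes held 8 at 6 of 17 genes, 6.06% of their distal regions, and AP-1 factor genes 0 of 52 distal regions. Pluripotency factors held 6 members, 1 each at Esrrb, Klf4, Klf5, Nanog, Nr5a2 and Tbx3, 2.70% of their distal regions and below the 3.60% of all genes. The Nanog member, chr6:122672816-122673225, lay 34468 bp from the TSS and ranked at 52.9 and 45.5 at 48 h, although the Nanog promoter was not called then. Genes of other lineages, which served as a comparison, held 6 members at 6 of 15 genes, 5.00% of their distal regions. This was also above the 3.60% of all genes and close to the 5.03% of WNT, BMP and NODAL genes.

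Over all genes, 1815 of the 2148 genes had a single member and 270 had 2. The most members, 6, lay at Rreb1, which encodes a zinc finger factor of RAS signalling, followed by Gata4 with 5 and by Gcnt1, Rere, Sgk1 and Tnfaip8 with 4 each. Genes with 3 followed, in alphabetical order 1600014C10Rik, 1700017B05Rik, 1700122O11Rik, Adam19, Ank2 and Anp32a among others. Of the Rreb1 members, chr13:37802417-37803115 and chr13:37885869-37886694 lay in introns and the others between genes, 35556 to 47272 bp from the TSS. The highest ranks at 48 h were those of chr13:37730859-37731397, with 89.5 and 88.8 at 16 h and 95.4 and 90.5 at 48 h, while chr13:37802417-37803115 had no 8 h call and 17.7 and 38.9 at 48 h. Sgk1, a serum- and glucocorticoid-responsive kinase gene, had its 4 members in introns, and chr10:21936346-21937160 ranked at 99.6 and 99.4 at 48 h. Long genes and gene-poor surroundings collect more distal regions, and counts per gene were not corrected for this.

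Members at the ends of the GATA range were set side by side. The member with the most matches, 7, lay in an intron at chr15:89358720-89359194 nearest to Ncaph2, a condensin subunit gene, and was called in only 6 of 14 libraries. The next, with 6 matches at chr5:92597008-92597705 nearest to Stbd1, ranked at 78.6 and 87.7 at 8 h and 58.7 and 65.4 at 48 h. The member without a match that ranked highest at 48 h, chr5:77165399-77166024 nearest to Spink2, a protease inhibitor gene, had 96.5 and 93.1 at 8 h and 99.5 and 99.5 at 48 h. The Lpar3 member, chr3:146253508-146254349, in an intron of a lysophosphatidic acid receptor gene, had 74.9 and 69.0 at 16 h and 99.3 and 98.5 at 48 h. The members without a match were picked for their rank at 48 h, and those with the most matches for that number. As picked examples, they show only that a high rank occurred without any of the GATA words in the central window. Likewise, many words occurred at a member with few calls.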

How the data were processed

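ATAC-seq peak lists of 14 libraries, 2 at each of 7 time points, were analysed. Per the study's methods, the authors ran the ENCODE ATAC-seq pipeline and used, for their own analysis, peaks shared by the replicates of a time point. The deposited lists analysed here are 1 per library, and their names mark an irreproducible discovery rate of 0.05, pseudoreplicates and filtering, which the methods do not describe further. The deposited files give each peak's position and a score, whose scale is not given in the sources used here, so only ranks within a library were used. The submitters' processing notes name mm10, GRCm38 and deepTools. Read depth is unknown, and the number of peaks per library limits the precision.

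Peaks on the 19 autosomes were merged by an overlap of 1 bp. GENCODE vM21 gave TSSs, exons and genes, and RefSeq GRCm38.p6 gave sequence. Motifs were searched as exact words on both strands of the central 200 bp, allowing overlaps within and between motifs. Members were assigned to the nearest TSS within 50 kb. Groups were compared over libraries, or over sets defined from the libraries of single replicate numbers, by exact permutation tests, without models across regions. Scripts (Python 3.11.15, numpy 2.4.6, pandas 2.3.3, scipy 1.17.1, matplotlib 3.10.9) were tested on simulated data. Alternatives changed the peak threshold, overlap, merging, distal distance, call rule, replicates used, motif window, assignment distance and TSS set.

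The members, gene lists and tests were chosen with earlier results of these data known. Named genes were, for each list, the up to 5 with most members and, over all genes, the 12 with most, ties in alphabetical order. Genes given beyond these, the Pdgfra member, and the choice among several members of 1 gene came after their values were seen, except for the windows taken by most GATA matches. The PrE and Epi lists of the study supplied symbols only, and matched 577 and 220 autosomal genes, with 2 PrE symbols unmatched. Of the other symbols, Cited1, Flna and Nr0b1 are not on autosomes. A gene, with what belongs to it, and a sequence window are not reported here.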

Additional observations from a re-analysis of the deposited data

How the results depend on the processing

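Of the values recomputed under an alternative, 86 were counted as unchanged, 39 as moved and 6 as changed in sign. For the tested differences, unchanged meant only the same sign, whatever the size. For numbers of regions it meant within 1.5 times, and for other values a move smaller than the SD. The GATA difference from regions opened at 2 h, 8.92 points, was thus counted as unchanged at 4.81 in whole regions and at 0.530 with control words. So was that from regions opened only by 48 h, 8.31 points, at 15.3 in whole regions. The causes were not tested except where the alternative fixes them. Without replicate 1 or 2, when single libraries define each time point, there were 5116 to 5384 members. The percent called was then 78.7 to 81.1 at 16 h and 80.4 to 80.8 at 24 h, and the difference between 24 h and 16 h -0.274 to 1.71 points. GATA words were in 62.5 to 63.0%, AP-1 words in 3.54 to 4.07%, PrE genes nearest to 7.52 to 8.12%, introns held 47.3 to 48.5% and the median TSS distance was 21870 to 22514.5 bp. The difference from regions opened at 2 h in percent called was -2.87 to -2.00 points. With the 50000 peaks of highest score per library, that difference turned to 0.575 points and the difference between 24 h and 16 h to 1.81, while 91.4% of members were called at 24 h, 72.2% had a GATA word and 1.18% were nearest to an Epi gene. With calls in at least 1 of 2 libraries, members were called in 81.7% at 16 h and 83.6% at 24 h, the difference between these times turned to 1.91 points, 67.6% had a GATA word, 3.48% an AP-1 word and 47.6% lay in introns. With 50% of a region covered, the values were 87.7% called at 24 h, 72.5% with GATA, 4.80% with AP-1 and 9.51% nearest to a PrE gene. Merging over gaps of 100 bp gave 70.1% with GATA. A distal distance of 5 kb gave 71.9% with GATA, 46.9% in introns and a median of 29864.5 bp. Wider windows hold more words by construction, 87.1% with GATA and 8.15% with AP-1 in 400 bp, and 88.9% and 11.8% in whole regions. The control words were in 24.1% of members, and with them the GATA differences turned to -0.137 points against regions opened at 16 to 24 h and -3.28 against those opened only by 48 h. Assignment within 20 kb left 0.964% nearest to an Epi gene. Chosen after seeing the data, one start per gene gave 70.3% with GATA and a median of 30379 bp, members of intermediate width had GATA words in 75.9%, and members with a GATA word were called in 92.6% at 16 h and 90.3% at 24 h.

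Deviations of same-numbered libraries correlated between -0.0118 and 0.00741 over 21 pairs of time points. The replicate numbers still differed in peak number, with more peaks in replicate 2 at every time point, such as 65073 against 61857 at 16 h. With the replicate block the difference from regions opened at 2 h was -1.17 points (exact p = 0.5, the smallest possible with 2 blocks) and that between 24 h and 16 h -0.684 points (exact p = 1.00). The alternative of at least 1 of 2 libraries was not run for the motif differences, whose sets use 1 library per time point. Peak lists without depth cannot separate a closed region from an uncalled one, and with 2 libraries per time point no test could reach 0.05.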
